A study of Danio rerio with 2 samples.

Results

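Cluster 3 of the deposited cell table held 402 of 4735 zebrafish cells, and its leading transcripts were those of xanthophores, the yellow pigment cells of fish. Its members were taken from the cluster number that the authors' cell table gives each barcode, so no expression threshold was applied here. The cells came from whole 24 hpf (hours post fertilisation) embryos of the Tg(mitfa:GFP) line, whose green fluorescent reporter is under the promoter of mitfa, and carried no further mutation or treatment according to the labels. A flow cytometer separated a mitfa:GFP high fraction from a mitfa:GFP low fraction, and each became 1 droplet 3′ library without a replicate, here called the high and the low library. The study used these cells to look at melanophore states, and the question for cluster 3 is what else it expressed beside the other mitfa:GFP cells.

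Xanthophores arise from the neural crest, the migratory embryonic population that also gives black melanophores and silvery iridophores. Their yellow colour comes from pteridines, which are built from the purine nucleotide GTP, and later in life from carotenoids held in lipid droplets. At the embryonic stage the pteridine pathway is the better known one, and GTP cyclohydrolase, encoded by gch2, catalyses its first step.

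The high library placed 324 of its 2374 tabulated cells in cluster 3, a share of 13.6% (exact Clopper-Pearson 95% interval 12.3 to 15.1), and the low library 78 of 2361 cells, or 3.30% (2.62 to 4.11). The sort set which cells entered each library, so the shares describe the sorted fractions and not the embryo, and fraction and library cannot be told apart. Median depth was 9963.5 and 9142 UMIs (unique molecular identifiers, each standing for 1 captured transcript) per cell, and 3208205 and 677105 UMIs were summed over cluster 3 in the high and the low library. All 5 xanthophore markers were highest in cluster 3: gch2, aox5, cx30.3, slc2a15a and uraha summed to 29736 CPM (the gene's share of all summed UMIs, scaled to a total of 1000000) in the high library and 22866 CPM in the low library. In every other cluster the same sum lay between 109 and 1067 CPM in the high library and between 4.75 and 645 CPM in the low library. Melanophore markers summed to 277 and 51.7 CPM in cluster 3, against 12224 and 10450 CPM in cluster 6, where they were highest. Since the clusters were made from these same genes, cluster 3 against the others is a description without a test, and with 1 library per fraction no p-value is given for high against low either. Intervals throughout are 95% intervals for counting error only.

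**Figure D1:**
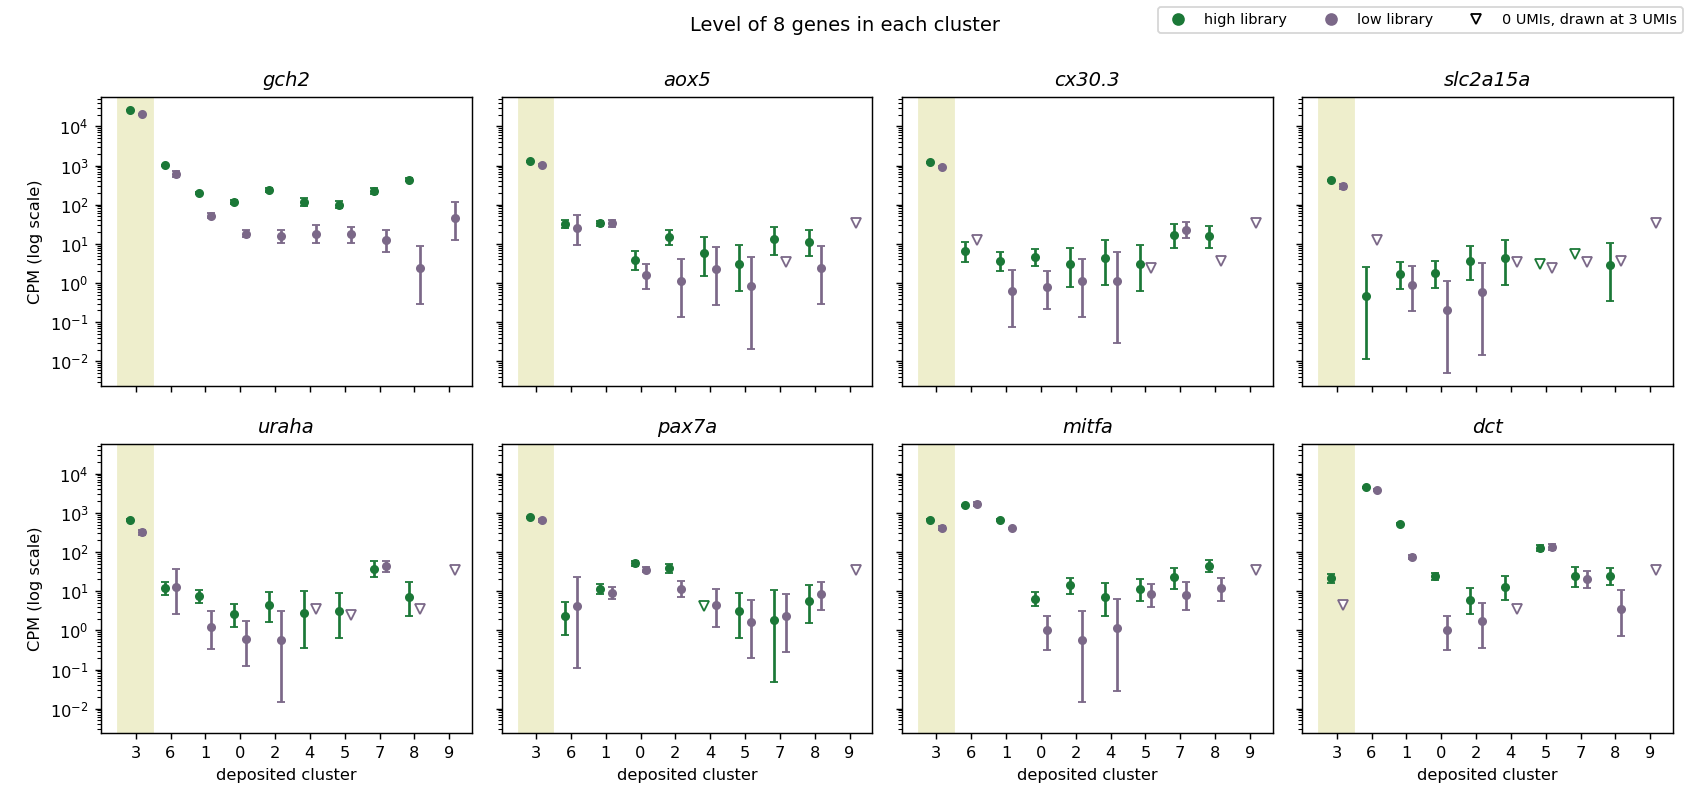
Levels of 8 genes in CPM (log axis) in each deposited cluster on the x axis, with cluster 3 shaded at the left, the high library in green and the low library in purple; bars are exact Poisson 95% intervals and open triangles mark 0 UMIs, drawn at 3 UMIs. The first 5 genes and pax7a peak in cluster 3 in both libraries (gch2 at 26174 and 20303 CPM), while mitfa and dct peak in cluster 6 (dct at 4478 and 3832 CPM); cluster 9 held no cell of the high library.

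Genes of the pteridine pathway stood high in these cells. gch2 took 2.62% of all cluster 3 UMIs in the high library, where it was the most abundant transcript, and 2.03% in the low library, where it was second. Its level was 26174 CPM in the high and 20303 CPM in the low library, against 306 and 34.6 CPM in all other clusters together, a log2 ratio of 6.42 (6.38 to 6.46) and 9.20 (9.07 to 9.33). The log2 ratios differed mainly through the other cells. Cluster 6, with 197 cells in the high and 22 in the low library, gave 2193 of the 4383 gch2 UMIs outside cluster 3 in the high library and 144 of 489 in the low library. Cluster 0, the largest cluster, held gch2 at 117 CPM in the high library and 18.2 CPM in the low library.

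Other genes of the pteridine list followed gch2. pts, the synthase that acts on the product of GTP cyclohydrolase, stood at 314 and 219 CPM in cluster 3 (high and low library), against 21.4 and 3.82 CPM elsewhere. xdh, xanthine dehydrogenase, stood at 150 and 123 CPM, against 0.488 and 0.141 CPM elsewhere, which rest on 7 and 2 UMIs. That was 308-fold and 867-fold higher, with log2 intervals of 7.21 to 9.59 and 7.86 to 12.8. In the high library pts and xdh had the narrowest and the widest gap among the 6 genes of the pteridine list at least 2-fold higher. sprb, 1 of a pair of sepiapterin reductase genes, reached 54.5 and 39.9 CPM, against 0.558 and 0.141 CPM elsewhere. Its paralogue spra ran the other way, with only 10 and 2 UMIs in cluster 3. The aldehyde oxidase gene aox5 was at 1280 and 1026 CPM in cluster 3, against 18.3 and 9.26 CPM elsewhere. uraha is in the list although it encodes a hydroxyisourate hydrolase of purine breakdown. It was at 654 and 318 CPM, against 7.11 and 3.39 CPM elsewhere. Low levels of some remained outside the cluster, such as aox5 at 33.3 and 33.5 CPM in cluster 1 and at 32.0 and 25.3 CPM in cluster 6.

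Of 16 listed pteridine genes, 15 were in the files and 9 passed the minimum mean level of 20 CPM over cluster 3 and the other clusters. In the high library 6 of the 9 were at least 2-fold higher in cluster 3, where 9.11% of 4411 genes past the minimum were, and none was at least 2-fold lower, where 17.2% of genes were. In the low library 8 of 9 were at least 2-fold higher, where 16.1% of 4509 genes were, and none lower, where 19.7% were. The list's median log2 ratio was 6.13 and 6.55, and the median over all genes past the minimum was -0.14 and -0.05. A gene that passed the minimum only because of its level in cluster 3 had to differ, so counts over such genes describe the cluster without adding support. The members short of the minimum were few in UMIs: gch1 had 44 and 4 UMIs, qdprb1 39 and 5, qdprb2 1 and 0, and gchfr and aox6 none in cluster 3.

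2 genes that recycle the pterin cofactor stood lower in cluster 3 than in cluster 6. qdpra, dihydropteridine reductase, was at 958 and 851 CPM in cluster 3, against 544 and 124 CPM in all other clusters, but it was higher in cluster 6, at 1951 and 1897 CPM. pcbd1, a carbinolamine dehydratase, was at 703 and 446 CPM in cluster 3, against 1056 and 822 CPM in cluster 6. Both recycling genes were thus higher in cluster 6, while gch2, pts, sprb, xdh, aox5 and uraha were higher in cluster 3. Over cluster 6, 6 of 9 pteridine genes past the minimum were at least 2-fold higher in the high library and 5 of 9 in the low. Of all genes 6.38% and 10.4% were. At least 2-fold lower were qdpra in the high library and spra and qdpra in the low, where 8.76% and 11.8% of all genes were.

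The molybdenum cofactor, which xanthine dehydrogenase and aldehyde oxidases carry, had its own listed genes. mocs1, for its first step, was at 86.3 and 88.6 CPM in cluster 3, against 2.72 and 1.20 CPM in all other clusters. mocs2, which acts after it, was at 429 and 452 CPM, against 56.2 and 41.4 CPM elsewhere. gphna, a gephyrin gene of the last step, was at 78.5 and 81.2 CPM in cluster 3, against 29.4 and 8.13 CPM elsewhere. Of 6 listed genes 5 were in the files and 3 passed the minimum, while mocs3 had 24 and 2 UMIs and gphnb 1 and 0. These 3 were at least 2-fold higher in both libraries, where 9.11% and 16.1% of all genes were. Over cluster 6, only mocs1 and mocs2 were at least 2-fold higher, where 6.38% and 10.4% of all genes were. There gphna was at log2 ratios of -0.18 and 0.46.

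Purine synthesis supplies GTP to the pteridine pathway, and nearly every step of it was higher in cluster 3. paics, which carries out a pair of middle steps of the de novo pathway, was at 2260 and 1415 CPM in cluster 3, against 99.5 and 83.6 CPM in all other clusters. atic, for the closing steps to IMP, was at 1262 and 917 CPM, against 49.2 and 50.5 CPM elsewhere. ppat, the committed step, was at 362 and 335 CPM, against 22.9 and 21.1 CPM elsewhere. These genes were higher by a similar factor in each library, between 15.8-fold and 25.6-fold in the high and between 15.9-fold and 18.1-fold in the low library.

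impdh1b and gmps of the branch from IMP towards GMP were also high, while the adenylosuccinate synthase genes of the branch towards AMP were not. impdh1b, IMP dehydrogenase, was at 5150 and 5153 CPM in cluster 3, against 149 and 94.0 CPM elsewhere. The other listed IMP dehydrogenase genes, impdh1a and impdh2, were not among the purine genes counted as at least 2-fold higher in either library. gmps, GMP synthetase, was at 1177 and 1183 CPM, against 135 and 107 CPM elsewhere. adssl, an adenylosuccinate synthase of the AMP branch, was at 10.3 and 11.8 CPM in cluster 3, against 33.1 and 47.7 CPM in all other clusters. The other listed synthase gene, adss2, had 1 and 0 UMIs. By contrast adsl, the lyase gene of the same branch, was at least 2-fold higher in both libraries. In all, 9 of 11 purine genes past the minimum were at least 2-fold higher in the high library and 9 of 12 in the low library, where 9.11% and 16.1% of all genes were. Only adssl was at least 2-fold lower in both, where 17.2% and 19.7% of all genes were, and 14 of 14 listed genes were in the files. prps1a was at 469 and 473 CPM in cluster 3, against 116 and 124 CPM, whereas its paralogue prps1b was at 57.4 and 81.2 CPM, against 79.9 and 88.2 CPM.

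**Figure D2:**
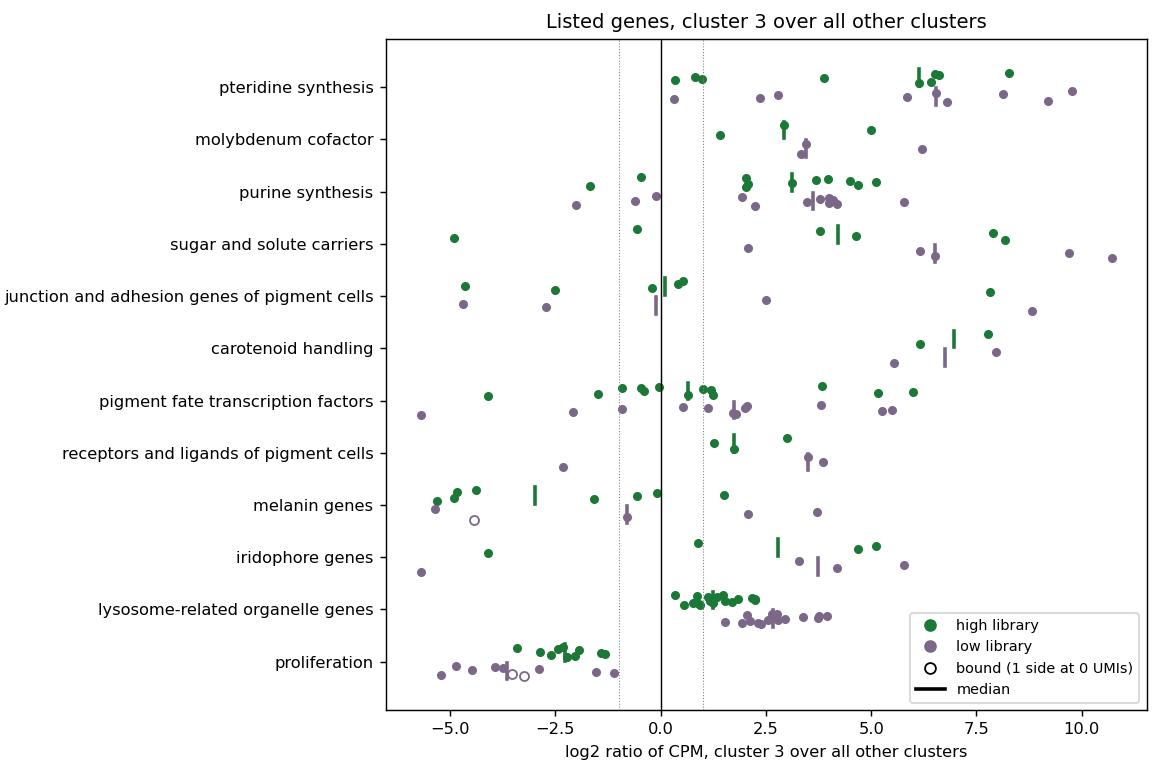
Log2 ratio of CPM, cluster 3 over all other clusters, for each listed gene past the minimum of 20 CPM (1 point per gene, high library in green above low in purple, short bars the list medians, open points bounds where 1 side had 0 UMIs, dotted lines 2-fold). Pteridine, purine and carotenoid genes lie mostly to the right (pteridine medians 6.13 and 6.55) and the 10 proliferation genes past the minimum all lie to the left (medians -2.27 and -3.64).

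Carriers, a connexin and lipid droplet genes were high beside the enzymes. The sugar transporter genes slc2a15a, slc2a15b and slc2a11b, whose medaka orthologues include genes needed for yellow and white pigment cells, were all higher in cluster 3. slc2a15a was at 415 and 295 CPM, against 1.74 and 0.353 CPM in all other clusters, and slc2a11b at 1630 and 1430 CPM, against 65.0 and 15.5 CPM. slc22a7a, of the organic anion transporter family, was at 723 and 357 CPM, against 2.51 and 0.212 CPM elsewhere. Of these carriers slc2a15a and slc22a7a were thus near 0 outside the cluster, unlike slc2a11b. cx30.3, a gap junction connexin, was at 1213 and 925 CPM, against 5.37 and 2.05 CPM elsewhere.

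Among carotenoid genes, plin6, a coat protein of lipid droplets, was at 379 and 229 CPM, against 1.74 and 0.919 CPM elsewhere. bco1, a carotene-cleaving oxygenase, was at 159 and 91.6 CPM, against 2.23 and 1.98 CPM elsewhere. scarb1, the scavenger receptor for carotenoid uptake, had 26.8 and 17.7 CPM in cluster 3, against 5.30 and 4.88 CPM elsewhere, and did not pass the minimum. bco2a, bco1l and bco2b had between 0 and 2 UMIs in cluster 3 of either library, so only part of the carotenoid list was detected at this depth.

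The lists of junction and iridophore genes were divided. Of 12 junction and adhesion genes 10 were in the files, and 6 passed the minimum in the high and 4 in the low library. In both libraries cx30.3 was at least 2-fold higher and jam3b and mcamb at least 2-fold lower than in all other clusters. Of all genes 9.11% and 16.1% were higher and 17.2% and 19.7% lower. tspan36, a tetraspanin of pigment cells, was also at least 2-fold higher in the low library. It was at 1166 and 933 CPM in cluster 3, against 2758 and 2340 CPM in cluster 6. gja4 and cx39.4 had 0 UMIs in cluster 3 of the high library and igsf11 had 2. Of 10 iridophore genes 4 passed the minimum, and the higher ones were atic and impdh1b, which are also in the purine list, with pnp4a among them in the low library. ltk, the receptor that iridophores need, had 0 UMIs in cluster 3 of the high library and 1 UMI in the low library.

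Beyond the lists, the ranking by ratio in both libraries brought up further genes. CABZ01021592.1, which the files name only by a clone identifier, was second in abundance in the high library with 2.43% of cluster 3 UMIs and ranked 3 in the low library with 1.32%. It was at 24255 and 13225 CPM in cluster 3, against 94.6 and 14.3 CPM elsewhere. bscl2l, of the seipin family of lipid droplet proteins, was at 304 and 146 CPM, against 0.558 and 0.283 CPM elsewhere. These lay among the 15 highest ratios in both libraries. mlphb, a melanophilin gene, was at 138 and 100 CPM, against 0.558 and 0.212 CPM elsewhere, while its paralogue mlpha had 11 and 1 UMIs. rbp4l, of the retinol binding protein family, was at 343 and 87.1 CPM, against 0.697 and 0.353 CPM elsewhere. asip2b, of the agouti family, was at 190 and 108 CPM, against 0.837 and 0.495 CPM elsewhere. tmem130, zgc:113142 and si:dkey-251i10.2 belonged to the same top 15, which also held xdh, slc22a7a, slc2a15a, cx30.3, plin6, sprb and uraha. Outside cluster 3 the 15 genes lay between 0.488 and 94.6 CPM in the high library and between 0.141 and 14.3 CPM in the low library.

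The lowest 10 genes of cluster 3 over all other clusters were mostly genes of muscle, namely tnnt2c, tpma, acta1a, tnni2b.1, myl13, aldoab and smyhc1, with the actin-associated gene palld, the surface keratin krt4 and the apolipoprotein gene apoc1. krt4 was at 11.5 and 13.3 CPM in cluster 3, against 641 and 944 CPM elsewhere, and tpma was at 1.56 and 1.48 CPM, against 198 and 183 CPM. Retina markers summed to 5 and 0 UMIs and endothelium markers to 3 and 1 UMIs in cluster 3.

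The transcription factors fell into those known from xanthophore development and those of the whole neural crest lineage. pax7a and pax7b, paralogues needed for xanthophores in zebrafish, stood out most. pax7a was at 770 and 648 CPM in cluster 3, against 21.7 and 17.1 CPM in all other clusters, and pax7b at 630 and 557 CPM, against 9.84 and 12.3 CPM elsewhere. tfec, a relative of mitfa, was at 79.8 and 76.8 CPM, against 5.58 and 5.51 CPM elsewhere. All 3 were thus low over the other clusters together, unlike the factors of the wider lineage. Single clusters held more, with tfec at 17.2 and 21.6 CPM in cluster 1 and pax7a at 51.8 and 35.1 CPM in cluster 0. sox10, required for all neural crest pigment cells, was at 785 and 805 CPM, against 345 and 200 CPM elsewhere. foxd3, an early neural crest factor, was at 240 and 387 CPM, against 102 and 112 CPM elsewhere. mitfa itself, the melanophore master regulator that also drives the reporter, was at 668 and 406 CPM in cluster 3, against 429 and 124 CPM elsewhere. alx4a, a homeobox gene of the iridophore lineage, had 12 UMIs in the high and 1 in the low library.

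Among 16 listed factors 13 passed the minimum in the high library, 6 of them at least 2-fold higher and 2 at least 2-fold lower, and 12 passed in the low library, 8 higher and 2 lower. The shares over all genes were 9.11% higher and 17.2% lower in the high library and 16.1% and 19.7% in the low library, so the lower factors, pax3a and alx4a in both, were about as frequent as among all genes. Of 12 listed receptors and ligands 3 passed the minimum in each library. csf1ra, whose signal xanthophores need, was at 34.6 and 35.4 CPM in cluster 3, against 1.05 and 0.283 CPM elsewhere, and kita, the melanophore receptor, had 1 UMI in each library. ednrba, an endothelin receptor, was at 86.0 and 72.4 CPM, against 25.7 and 5.02 CPM elsewhere. csf1ra UMIs were spread over 87 of 324 cells of the high library with no cell above 4, and over 20 of 78 cells of the low library.

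To compare cells at equal depth, each was thinned to 3000 UMIs and shallower cells were left out, 26 of 324 in the high and 4 of 78 in the low library. At that depth gch2 had a UMI in 99.3% of cluster 3 cells (97.6 to 99.9) in the high library and 97.3% (90.6 to 99.7) in the low library. The background was not the same in both libraries, since 27.2% of cluster 0 cells in the high and 5.42% in the low library also had a gch2 UMI, at median depths of 4447 and 4559 UMIs before thinning. pax7a was found in 69.8% and 58.1% of cluster 3 cells, against 9.02% and 7.93% of cluster 0 cells, and pax7b in 72.5% and 66.2%, against 5.15% and 5.54%. Both pax7 genes were found in the same cell in 53.4% (47.5 to 59.1) and 41.9% (30.5 to 53.9) of cluster 3 cells. In cluster 0 they were found together in 1.61% and 1.76% of cells. The high library had 0 such cells among 195 of cluster 6 and 420 of cluster 1, where the exact intervals reach up to 1.87% and 0.874%. tfec was found in 20.8% and 21.6% and csf1ra in 9.40% and 9.46%, against at most 0.161% of cluster 0 cells for either gene. At this depth tfec and csf1ra were missed in most cluster 3 cells, which does not show that those cells lacked them.

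**Figure D3:**
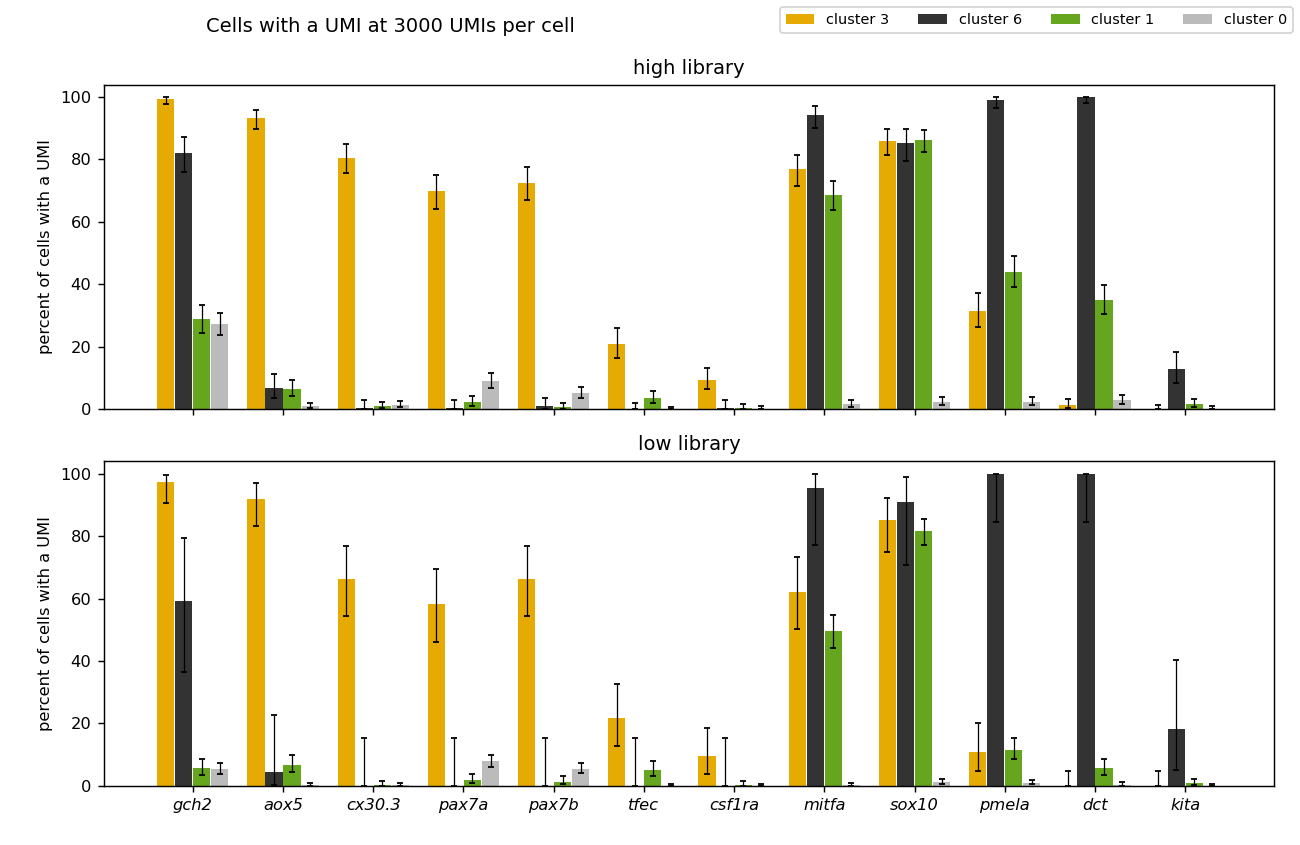
Percent of cells with at least 1 UMI of each gene on the x axis after thinning to 3000 UMIs per cell, in clusters 3, 6, 1 and 0, high library above and low library below; bars start at 0 and lines are exact 95% binomial intervals. gch2 is found in 99.3% and 97.3% of cluster 3 cells and dct in 1.34% and 0%, while cluster 0, drawn in grey, gives the level in cells with few pigment markers (gch2 27.2% and 5.42%).

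gch2 counts varied widely from cell to cell. At 3000 UMIs, those in the high library ran from 0 to 194 UMIs per cell, with a median of 81.5 and a 10th percentile of 19.7. In the low library they ran from 0 to 152 UMIs, with a median of 59 and a 10th percentile of 4. The variance of gch2 was 20.1 and 29.3 times its mean, a quotient that grows with the mean. For the less abundant pteridine genes it was lower, at 1.62 and 2.02 for aox5, 2.02 and 1.80 for uraha and 1.15 and 1.11 for xdh. Across cells, gch2 counts had Pearson's r of 0.75 and 0.78 with those of CABZ01021592.1 and of 0.63 and 0.58 with paics (298 and 74 cells of 1 library each). These are descriptions over cells that share a library and a fixed total. The same measure of gch2 was 0.33 and 0.40 with aox5 and 0.39 and 0.61 with cx30.3. It was 0.17 and 0.18 with pax7a and -0.04 and -0.08 with pax7b.

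Cluster 6, where the melanin genes were highest, allowed a comparison between pigment cells. It had 197 cells in the high library and only 22 in the low library, so the low library values rest on 237221 UMIs. Against cluster 6, cluster 3 was at least 2-fold higher for 6.38% of 4077 genes past the minimum and at least 2-fold lower for 8.76% in the high library, and for 10.4% and 11.8% of 4173 genes in the low library. Of the genes at least 2-fold higher, 176 were shared by both libraries, 67.7% of the high library's and 40.7% of the low library's, and of those at least 2-fold lower 252 were shared (70.6% and 51.1%).

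Melanin synthesis separated these clusters. dct, dopachrome tautomerase, had 68 UMIs in cluster 3 of the high library, or 21.2 CPM, and 0 UMIs in the low library, against 4478 and 3832 CPM in cluster 6. That made it 211-fold lower in the high library and at least 865-fold lower in the low library. tyrp1b, of the same enzyme family, was at 27.7 and 1.48 CPM in cluster 3, against 3446 and 2896 CPM in cluster 6. tyrp1a, si:ch73-389b16.1, zgc:91968, kita, mlpha, hpcal4, slc24a5 and slc7a8a were the other 8 among the lowest 10. All 10 listed melanin genes passed the minimum here. In each library 9 were at least 2-fold lower in cluster 3, where 8.76% and 11.8% of all genes were. The list's median log2 ratio was -5.95 and -5.67, where the median over all genes was -0.13 and -0.07. Since cluster 6 was marked by these same genes, the count describes the clusters without adding support. Over all other clusters 5 of 8 listed melanin genes were at least 2-fold lower in the high library and 2 of 5 in the low. Of all genes 17.2% and 19.7% were lower there, and cluster 6 made up 8.30% and 0.932% of the cells. In that comparison trpm1b was at least 2-fold higher in both libraries and slc45a2 in the low library. Higher genes made up 9.11% and 16.1% of all genes there.

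The exception among melanin genes was trpm1b, a cation channel gene of pigment cells, at 242 and 247 CPM in cluster 3, against 270 and 207 CPM in cluster 6. Against cluster 6, slc45a2 and tyr were lower without being absent. slc45a2, a melanosomal transporter, was at 297 and 242 CPM in cluster 3, against 1893 and 1686 CPM, and was found in 267 of 324 and 58 of 78 cluster 3 cells. tyr, tyrosinase, was at 46.1 and 26.6 CPM, against 230 and 236 CPM. By contrast 42 of the 68 dct UMIs of the high library were in 1 cell.

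The organelle genes passed 2-fold about as often as all genes between clusters 3 and 6. Of 21 listed genes of lysosome-related organelles past the minimum (28 of 32 listed were in the files), 1 was at least 2-fold higher and 2 lower in the high library, and 2 higher and 3 lower in the low library, where 6.38% and 8.76%, and 10.4% and 11.8%, of all genes were. Their median log2 ratio was -0.12 and -0.38 against cluster 6, but 1.25 and 2.66 against all other clusters. rab32a, a small GTPase of pigment organelles, was at 448 and 552 CPM in cluster 3 and 527 and 493 CPM in cluster 6, and myo5aa, a myosin that moves them, at 236 and 185 CPM and 218 and 198 CPM. gpr143, a receptor of pigment organelles, was at 415 and 344 CPM in cluster 3, against 630 and 476 CPM in cluster 6, and pnp4a, a purine nucleoside phosphorylase used as an iridophore marker, was at 262 and 171 CPM, against 646 and 506 CPM in cluster 6.

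The genes highest in cluster 3 over cluster 6 in both libraries were CABZ01021592.1, pax7a, cx30.3, si:dkey-251i10.2, tmem130, pax7b, aox5, slc22a7a, arhgef18a and gch2. pax7a was at 770 and 648 CPM in cluster 3, against 2.32 and 4.22 CPM in cluster 6, which rests on 5 UMIs and 1 UMI there. mitfa was at 668 and 406 CPM in cluster 3, against 1567 and 1699 CPM in cluster 6, and sox10 at 785 and 805 CPM, against 770 and 911 CPM. foxd3 was higher in cluster 3, at 240 and 387 CPM, against 76.0 and 67.4 CPM in cluster 6. tfap2a and tfap2e, factors of the melanophore programme, were lower in cluster 3, tfap2e at 133 and 100 CPM, against 598 and 578 CPM.

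gch2 was also present in cluster 6, at 1016 and 607 CPM, above every other cluster but cluster 3. Its ratio to other xanthophore transcripts differed between the clusters: the high library held 21.6 gch2 UMIs per cx30.3 UMI in cluster 3 (20.9 to 22.3) and 157 in cluster 6 (93.2 to 287), against 25.2 (15.7 to 42.9) in cluster 0. Per aox5 UMI the values were 20.5 (19.8 to 21.1) in cluster 3, 31.8 (25.0 to 41.0) in cluster 6 and 30.2 (18.1 to 54.4) in cluster 0. At 3000 UMIs, 82.1% and 59.1% of cluster 6 cells held gch2, against 27.2% and 5.42% of cluster 0 cells.

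**Figure D4:**
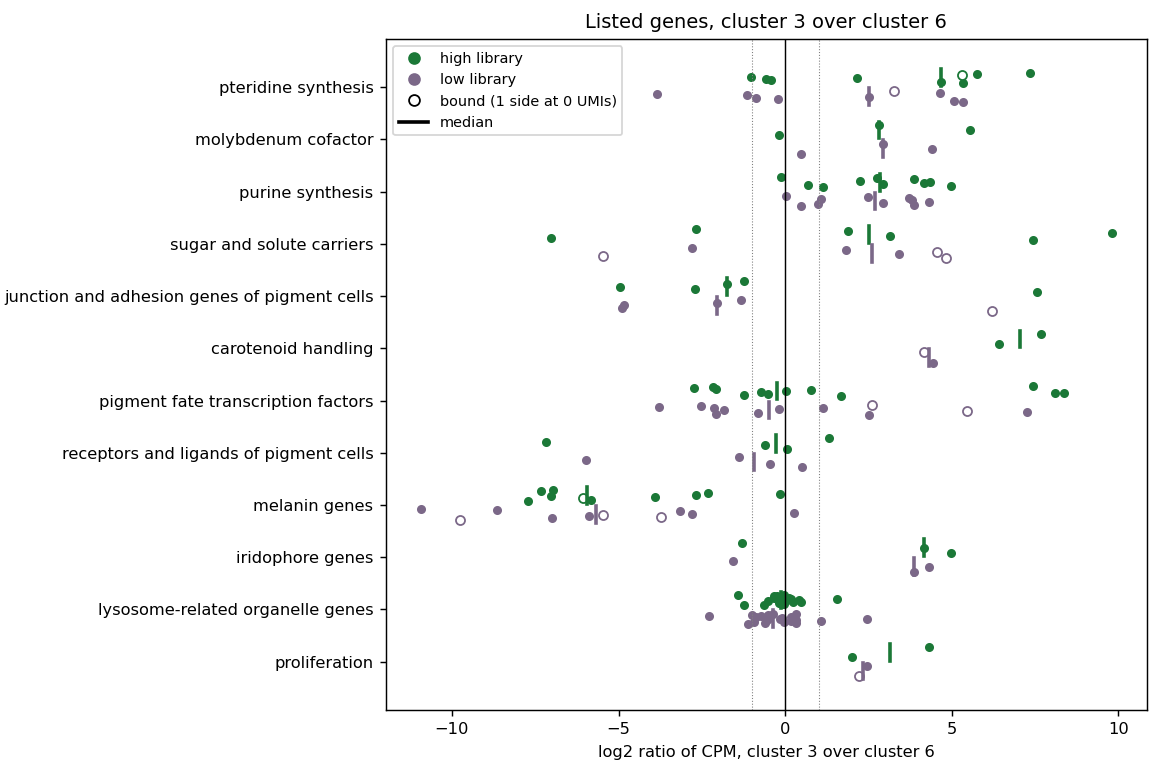
Log2 ratio of CPM, cluster 3 over cluster 6, for each listed gene past the minimum of 20 CPM, drawn as for the plot over all other clusters. Melanin genes lie to the left (medians -5.95 and -5.67, with trpm1b near 0), pteridine and purine genes mostly to the right (medians 4.69 and 2.53, and 2.84 and 2.71), and lysosome-related organelle genes around 0 (medians -0.12 and -0.38).

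Neural crest markers summed to 1172 and 1388 CPM in cluster 3, against 1397 and 1446 CPM in cluster 1, the largest cluster in which they were high. Over cluster 1, cluster 3 was at least 2-fold higher for 5.79% of 4228 genes and lower for 8.35% in the high library, and for 10.5% and 11.2% of 4295 genes in the low library. The 5 highest were bscl2l, slc22a7a, cx30.3, CABZ01021592.1 and slc2a15a. Pteridine genes had medians of 5.26 and 4.52 and purine genes of 3.13 and 3.19 on the log2 scale. sox10 was at 785 and 805 CPM in cluster 3, against 769 and 758 CPM in cluster 1. mitfa was at 668 and 406 CPM in cluster 3, against 654 and 400 CPM in cluster 1, and foxd3 at 240 and 387 CPM, against 283 and 434 CPM. Other factors of the lists differed more: tfap2a, at 126 and 161 CPM in cluster 3, against 280 and 337 CPM in cluster 1, and alx4a were at least 2-fold lower in both libraries, crestin, a neural crest transcript, in the high library and snai2 in the low library.

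The genes lowest in cluster 3 over cluster 1 were mcamb, alx4a, hpcal4, dlx5a and loxl2a. mcamb, a cell adhesion gene, was at 3.74 and 4.43 CPM in cluster 3, against 239 and 417 CPM in cluster 1, and alx4a at 3.74 and 1.48 CPM, against 201 and 286 CPM. dlx5a, a homeobox gene, was at 2.49 CPM in the high library and had 0 UMIs in the low library, against 78.9 and 216 CPM.

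Proliferation genes stood low in cluster 3 against the other sorted cells but above cluster 6. All 10 of the 12 listed genes that passed the minimum were at least 2-fold lower in cluster 3 than in all other clusters in both libraries, where 17.2% and 19.7% of all genes were, with medians of -2.27 and -3.64. pcna, the replication clamp, was at 130 and 93.0 CPM in cluster 3, against 496 and 685 CPM elsewhere and 6.49 and 16.9 CPM in cluster 6. Against cluster 1, pcna was at 130 and 130 CPM in the high library and at 93.0 and 316 CPM in the low library. In the high library 2 of 6 genes past the minimum, mki67 and top2a, were at least 2-fold lower than in cluster 1, with a list median of -0.49. In the low library 7 of 9 were, with a median of -3.08. Of all genes 8.35% and 11.2% were at least 2-fold lower than in cluster 1.

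Per cell, 48 of 298 cluster 3 cells of the high library held at least 2 proliferation UMIs at 3000 UMIs, 16.1% (12.1 to 20.8), and 11 of 74 of the low library, 14.9% (7.66 to 25.0). The share was 0.513% and 0% in cluster 6 (0 of 22 cells in the low library, with an interval up to 15.4%), 20.2% and 44.6% in cluster 1, and 87.1% and 87.4% in cluster 0. This class is a range of a score: 43 cells of the high library had 1 UMI, just below the limit, and 16 lay at it, and without thinning the shares were 31.2% and 37.2%. The authors' own phase calls put 87.3% and 92.3% of cluster 3 cells in G1, 8.64% and 7.69% in S and 4.01% and 0% in G2M. Thus most cells with a xanthophore profile at 24 hpf carried few or no proliferation transcripts, and some carried several.

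Those 48 cells of the high library still had the xanthophore profile. gch2 was at 24081 CPM in them (23694 to 24473), against 26644 CPM (26444 to 26845) in the 250 cells below the limit, and cx30.3 at 997 CPM, against 1276 CPM. pax7a was at 609 CPM (549 to 674), against 816 CPM (781 to 852), and mitfa at 444 CPM (393 to 500), against 724 CPM (691 to 758). pmela was level, at 222 and 222 CPM. The cells above the limit had a median of 13208 UMIs, against 9928 UMIs below it, and the part of depth in these differences was not tested. Without the cells of the 5% highest doublet scores the share at or above the limit was 14.4% (39 of 271 cells) and 12.7% (9 of 71 cells).

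Within cluster 3, many genes that lead it were higher in the high library. At a minimum of 50 CPM, 2105 genes were compared, of which 0.713% were at least 2-fold higher and 0.57% at least 2-fold lower in the high library. Of the 15 genes highest over all other clusters, 15 had a higher level in the high library, between 1.23-fold and 3.94-fold. The median log2 ratio over all compared genes was -0.04. The log2 intervals of xdh (-0.05 to 0.65) and sprb (-0.14 to 1.09) included 0, and sprb fell short of the minimum of 50 CPM. Of the 15, 5 passed 2-fold. These 5 were rbp4l at 3.94-fold, bscl2l at 2.08-fold, zgc:113142 at 2.07-fold, uraha at 2.06-fold and slc22a7a at 2.02-fold, followed by tmem130 at 2.00-fold and asip2b at 1.77-fold. Most pteridine genes differed by less. The pteridine list had 8 of 8 log2 ratios above 0, with a median of 0.34, where the median over all genes was -0.04. Only uraha, the listed gene of purine breakdown, was at least 2-fold higher, at 1.04 (0.84 to 1.25). gch2 was 1.29-fold higher in the high library, a log2 ratio of 0.37 (0.34 to 0.39). Purine genes had a median of 0.05, with 5 of 10 above 0. impdh1b was at 5150 and 5153 CPM, gmps at 1177 and 1183 CPM and prps1a at 469 and 473 CPM, so parts of this pathway were at the same level within counting error.

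Among the other members, slc22a7a was 2.02-fold higher in the high library (log2 ratio 1.02, 0.82 to 1.21), plin6 1.66-fold and bco1 1.74-fold. CABZ01021592.1 had a log2 ratio of 0.88 (0.84 to 0.91). pax7a, pax7b and tfec lay close to 0, at 0.25, 0.18 and 0.06, and csf1ra at -0.03 (-0.68 to 0.67). mitfa, the gene whose promoter drives the sorted reporter, was at 668 and 406 CPM, a log2 ratio of 0.72 (0.54 to 0.90), and was found in 76.8% (71.6 to 81.5) and 62.2% (50.1 to 73.2) of cells at 3000 UMIs. foxd3 went the other way, at 240 and 387 CPM, a log2 ratio of -0.69 (-0.89 to -0.48). sox10 was level at -0.04 (-0.17 to 0.10).

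The gene with the largest positive ratio was pmela, a melanosome fibril gene, at 222 CPM in cluster 3 of the high library and 48.7 CPM in the low library, a log2 ratio of 2.19 (1.68 to 2.74). In all other clusters together it was at 663 and 84.5 CPM. Cluster 0 held it at 19.9 and 2.99 CPM, cluster 2 at 20.2 and 2.87 CPM and cluster 1 at 530 and 90.2 CPM. Cluster 6, where pmela was highest, had a small gap, at 3299 and 2883 CPM. It gave 7122 and 684 pmela UMIs, from 197 and 22 cells, so its share weighs on the values of all other clusters together. Cluster 5 went the other way, at 89.2 and 139 CPM. Cluster 7 was level, at 28.1 (15.7 to 46.4) and 30.1 CPM (19.7 to 44.1). Thus a gap between the libraries was also seen in clusters 0, 1 and 2, but not in every cluster. In cluster 0 the share of cells with a UMI was 2.42% and 1.01%. The share in cluster 3 was 31.5% (26.3 to 37.2) in the high library, above that of cluster 0, and 10.8% (4.78 to 20.2) in the low library. The high library held 10.5 pmela UMIs per dct UMI in cluster 3 (8.16 to 13.6), against 0.737 in cluster 6 and 0.837 in cluster 0. The 712 UMIs of cluster 3 were spread over 159 of 324 cells. Whether free RNA contributed to the difference in pmela between libraries was not tested.

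rbp4l followed, at 343 and 87.1 CPM, a log2 ratio of 1.98 (1.60 to 2.38), in a gene nearly absent from all other clusters. hist1h4l, a histone gene, was at 156 and 53.2 CPM, and bhlhe41, a transcription factor of the circadian clock, at 175 and 60.6 CPM. cd63, cotl1, si:dkey-126g1.9, rtn1b, nfkbiab and tuba8l3 completed the 10 highest. cd63, a tetraspanin gene, was at 145 and 53.2 CPM in cluster 3, where the other clusters showed a similar gap of 165 and 61.3 CPM, whereas for si:dkey-126g1.9 cluster 3 had a log2 ratio of 1.31 (0.83 to 1.83) while the other clusters had lower levels in the high library (4.60 and 6.36 CPM).

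At the other end rpl26, a ribosomal protein gene, was at 64.5 CPM in the high library and 1047 CPM in the low library. The other clusters showed the same gap, at 62.4 and 1012 CPM, so cluster 3 and the other clusters showed it alike. AL935186.10, pleca, ARF5, mt-nd6, serpinh1b, esf1, mbd1b, surf6 and slc43a1a were the other 9 lowest, with log2 ratios between -1.34 and -1.07. serpinh1b, a collagen chaperone, was at 112 and 253 CPM in cluster 3, against 127 and 182 CPM in all other clusters.

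**Figure D5:**
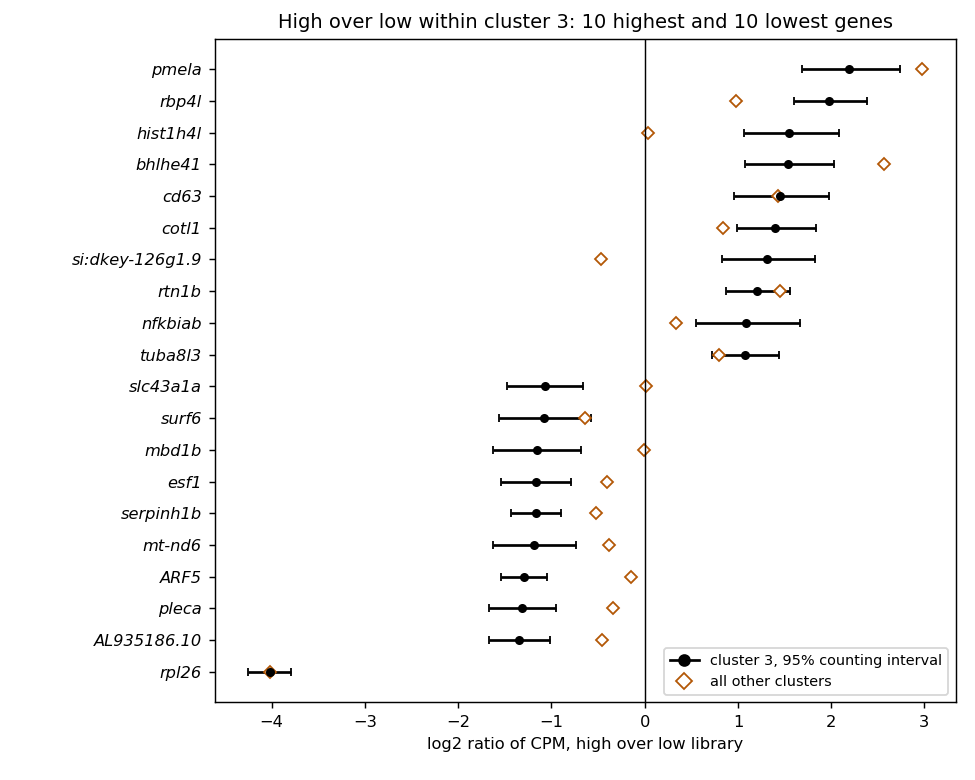
Log2 ratio of CPM, high over low library, for the 10 highest and 10 lowest genes within cluster 3 (black points with 95% counting intervals) and for the same genes in all other clusters (open diamonds). pmela is highest at 2.19 and rpl26 lowest at -4.02, where the other clusters show the same value.

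Scaling moved the balance of higher and lower genes. Over all other clusters in the high library, 34.6% of genes past 2-fold were higher in cluster 3, against 50.5% with TMM factors and 50.3% with median-of-ratios factors, which moved the all-gene median to 0.09. Over cluster 1 in the high library the split was 41.0%, against 58.3% and 58.1%, and over cluster 6 in the low library 46.7%, against 55.9% and 56.9%. Within cluster 3, 55.6% of the genes past 2-fold were higher in the high library, against 80.5% and 78.4% under those factors and 43.0% after thinning.

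Markers of other cell types were rare but not evenly spread. The 25 UMIs of lcp1, a leukocyte gene, lay in 1 cell of the high library, and 53 of 98 elavl3 UMIs, a neuron marker, in another. coro1a, listed with the macrophage markers, was broader, with 141 UMIs in 88 of 324 cells of the high library and 6 UMIs in 6 of 78 cells of the low library, while mpeg1.1, a defining macrophage marker, had 0 UMIs in both. Macrophage markers summed to 54.5 and 8.86 CPM in cluster 3, against 0 to 56.2 CPM in the other clusters of the high library and 0 to 16.2 CPM in those of the low library. cdh1, listed with the epidermis, was at 516 and 473 CPM in cluster 3 and at 493 and 506 CPM in cluster 6, while krt4, krt5 and epcam stood at 13.3 CPM or below in cluster 3.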

How the data were processed

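Cells of 1 mitfa:GFP high and 1 mitfa:GFP low library were compared. The deposited count matrices hold UMI counts per gene and barcode that the authors made with Cell Ranger 6.1.2, with GRCz11 named in the submitters' processing notes; the deposited cell table, made by the authors with Seurat, gives 4735 filtered cells their cluster, phase and percent of mitochondrial UMIs. Its percent values were not needed for any comparison. The libraries held 2605 and 2671 barcodes, 18225473 and 15888695 UMIs and 25107 genes. The authors' clustering, which used variable genes of these cells, was kept as deposited, and the authors set the xanthophore cluster aside before their melanophore analysis. The deposited aggregated matrix kept 86.6% of the high library's UMIs and all of the low library's, and was used only as an alternative. The reporter transcript was not analysed here.

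UMIs were summed per library and cluster and divided by the total of that sum to give CPM, with exact Poisson intervals for levels, exact conditional intervals for ratios and Clopper-Pearson intervals for shares (95%), computed in scipy 1.17.1 under Python 3.11.15, with tables handled in pandas 2.3.3 and arrays in numpy 2.4.6. A 3′ library counts about 1 tag per molecule, so CPM is not divided by gene length. Where 1 side had 0 UMIs, 3 UMIs per summed group stood in for it. Genes with a mean of 20 CPM over the groups compared (50 CPM for high over low) entered the counts, and 2-fold was the limit. Cells were thinned to 3000 UMIs in 20 draws. Doublets were not removed; Scrublet scores in scanpy 1.11.5 served an alternative. 1 barcode sequence occurred in both libraries, once in cluster 3. Scripts were tested on simulated data.

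Members, lists and markers were chosen with earlier results of these data known. Of 184 listed genes 176 were in the files and 8 were not found under their names. Named genes were all list members, the 15 highest and 10 lowest over all other clusters, 10 and 10 over cluster 6, 5 and 5 over cluster 1, and 10 and 10 of high over low. Alternatives were TMM factors (edgeR 4.0.16 in R 4.3.3), median-of-ratios factors, totals without mitochondrial and ribosomal protein genes, equal weight per cell, the aggregated matrix, thinning, other minimums and a pseudocount of 5 CPM. edgeR gave factors only, and no test was run.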

Additional observations from a re-analysis of the deposited data

Results flagged for a closer look

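Barcodes that the matrices hold but the authors' cell table leaves out carried xanthophore transcripts. In the high library 38 of 231 such barcodes, or 16.45% (exact 95% interval 11.9 to 21.9), had at least 10 UMIs of the 5 xanthophore markers, against 0.130% of cluster 0 cells (1 of 767) and 96.9% of cluster 3 cells. In the low library 4 of 310 did, or 1.2903% (0.353 to 3.27), against 0.0999% of cluster 0 cells (1 of 1001) and 96.2% of cluster 3 cells. The same cut was passed by 42.6% of cluster 6 cells (84 of 197) and 4.37% of cluster 1 cells in the high library. In the low library it was passed by 18.2% of cluster 6 cells (4 of 22) and 1.32% of cluster 1 cells. The median depth of the barcodes outside the authors' cell table was 1160 UMIs in the high and 945 UMIs in the low library. They entered no comparison, and what kind of barcodes they are was not tested.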

How the results depend on the processing

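No paired analysis was possible because each sort fraction is 1 library, and for the same reason no library could be left out. Of 140 gene counts under alternatives 34 moved by over 1.5 times, of 840 list medians 159 moved and 3 reversed, of 3549 named gene ratios 504 moved and 2 reversed, and of 142 shares 53 moved. Totals without mitochondrial and ribosomal protein genes were brought to the same mean scale, and list medians kept the members past the minimum of 20 CPM under every setting that did not itself change the minimum, both decided after a first run had been seen. The aggregated matrix and those totals moved none of the gene counts or list medians.

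Gene counts and list medians moved most with the minimum. With a minimum of 5 CPM and with none, the genes at least 2-fold higher in cluster 3 over all other clusters numbered 759 and 1422 in the high library and 1394 and 2320 in the low library, and those lower 1948 and 4444, and 2267 and 2860. Over cluster 6 they were 739 and 1916 higher and 777 and 1383 lower in the high library, and 1036 higher and 988 lower under both settings in the low library. Over cluster 1 they were 521 and 1238 higher and 951 and 2219 lower in the high library, and 948 and 1303 higher and 1355 and 1861 lower in the low library. Within cluster 3, high over low, they were 420 and 856 higher and 452 and 838 lower.

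Pteridine medians (log2, minimum 5 CPM and none) were 3.05 under both over all other clusters in the high library and 5.84 and 4.31 in the low library, 2.03 under both over cluster 6 in the high library, and over cluster 1 2.90 under both in the high library and 3.39 with no minimum in the low library. Purine medians were 2.60 and 2.07 over all other clusters, 2.52 under both over cluster 6 and 2.11 under both over cluster 1, all in the high library. Melanin medians were -3.53 under both over all other clusters in the high library, -0.89 and -1.35 over cluster 1 in the low library, where the median was 0.20 at 20 CPM, and 1.49 and 1.34 for high over low. Proliferation medians were 1.36 under both over cluster 6 in the low library, -1.19 under both over cluster 1 in the high library and 0.98 and 0.95 for high over low. With no minimum the medians of receptors and ligands (-0.43) and of iridophore genes (-0.78) over all other clusters in the high library, and of iridophore genes over cluster 1 in the low library (-0.64), turned negative.

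A pseudocount of 5 CPM gave pteridine medians of 3.59 and 4.63 over all other clusters in the high and low library, and of 3.57 over cluster 6 and 3.51 over cluster 1 in the high library, a purine median of 3.18 over all other clusters in the low library, and melanin medians of -2.42 over all other clusters and -4.22 over cluster 6 in the high library. TMM and median-of-ratios factors gave pteridine medians of 6.36 and 6.35 over all other clusters and 4.78 and 4.75 over cluster 6, purine medians of 3.35 and 3.34 over all other clusters, and 229 genes lower over cluster 1 under both, all in the high library, and 33 and 29 genes higher for high over low.

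Equal weight per cell gave, over all other clusters in the high library, medians of 5.06 for pteridine, 3.31 for purine, -2.37 for melanin and -2.89 for proliferation genes, and a melanin median of -0.12 in the low library, and apoda.1 reversed to 0.052 over cluster 1 in the low library. Thinning to 3000 UMIs gave, over all other clusters, medians of 6.51 for pteridine, 3.30 for purine and -2.49 for melanin genes in the high library and -2.18 for proliferation genes in the low library. Over cluster 6 it gave 3.45 for pteridine and -4.86 for melanin genes in the high library and -3.89 for melanin and 0.80 for proliferation genes in the low library, with vps18 reversed to 0.57, and over cluster 1 it gave 4.55 for pteridine and 3.44 for purine genes in the high library. High over low it gave 40 genes higher and 53 lower. Without the cells of the 5% highest doublet scores (31 of 324 and 3 of 78 in cluster 3), pteridine medians were 6.35 over all other clusters and 4.86 over cluster 6, and the melanin median over all other clusters was -3.25, all in the high library.

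Thinned to 1000 and to 5000 UMIs, the share of cluster 3 cells with a mitfa UMI was 43.8% and 88.1%, with a pmela UMI 15.9% and 41.1%, and with at least 2 proliferation UMIs 6.03% and 21.8% in the high library. At 1000 UMIs the low library gave 32.5% for mitfa and 2.60% for the proliferation class. No other value past 2-fold changed sign under the alternatives run. Where values moved, the cause was not tested. With 22 cluster 6 cells in the low library, levels there near 3 UMIs could not be resolved.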

Other observations

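The authors' phase calls split cluster 3 of the high library into 283 cells in G1, 28 in S and 13 in G2M. Summed pteridine genes stood at 30919 CPM in G1, 26979 CPM in S and 28343 CPM in G2M, and pax7a at 806 CPM in G1 and 570 CPM in S (487 to 663). mitfa was at 716 CPM in G1 and 413 CPM in S (342 to 493), and foxd3 at 242 CPM in G1 and 276 CPM in S (219 to 343). plin6 was at 399 CPM in G1 and 215 CPM in S (165 to 275). S cells of the high library were deeper, with a median of 11590 UMIs, against 9755 UMIs in G1. The low library, with 72 cells in G1 and 6 in S, went the same way only in part. There summed pteridine genes stood at 23241 CPM in G1 (22868 to 23618) and 26322 CPM in S (24764 to 27952). mitfa was at 402 CPM in G1 and 470 CPM in S (283 to 734), and foxd3 at 390 and 346 CPM (189 to 581). pax7a was at 668 CPM in G1 and 346 CPM in S (189 to 581), and plin6 was also lower in S. S cells were shallower there, at a median of 7645 UMIs, against 9282.5 UMIs in G1. The calls come from the same counts, and no test was run between them.

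Cells among the 5% highest doublet scores made up 9.57% of cluster 3 in the high library (6.59 to 13.3) and 3.85% in the low library. Their shares were 8.28% and 7.11% in cluster 1, 1.02% and 0% in cluster 6, and 0.913% and 1.80% in cluster 0. Within cluster 3 of the high library such cells held 92 of the 98 elavl3 UMIs, all 25 lcp1 UMIs and 114 of the 712 pmela UMIs.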
